A study of Rattus norvegicus with 8 samples.

Results

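The 7 transcripts described here encode the mitochondrially encoded subunits of respiratory complex I, Mt-nd1 (ENSRNOG00000030644), Mt-nd2 (ENSRNOG00000031033), Mt-nd3 (ENSRNOG00000033615), Mt-nd4 (ENSRNOG00000029707), Mt-nd4l (ENSRNOG00000031053), Mt-nd5 (ENSRNOG00000029971) and Mt-nd6 (ENSRNOG00000029042). They are 7 of 26405 Ensembl gene IDs in the count table, and all 7 were among the 14522 IDs abundant enough to be tested. The members were selected by gene identity, after their high read levels and their differences between the groups were already known from these libraries. Those differences are therefore given as a description, without a test. RNA sequencing was done on the right hippocampus of 8 female Sprague-Dawley rats aged 28 months, 1 library per rat. In the IGF1 group (4 rats) an adenoviral vector expressing rat IGF-I, the trophic peptide insulin-like growth factor I, had been injected into the cerebral ventricles. In the DsRed group (4 rats) the injected adenoviral vector was the placebo, named for the red fluorescent protein DsRed. Both groups thus share age, sex, strain, surgery and vector type. The sources used here do not give the promoter, the time since injection or the cells reached by the vector.

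Complex I is the entry point of the respiratory chain: it takes electrons from NADH, passes them to ubiquinone and pumps protons across the inner mitochondrial membrane. Most of its subunits are encoded in the nucleus, while the hydrophobic core of its membrane arm is made inside the mitochondrion from mitochondrial DNA. Mitochondrial genes are transcribed as long polycistronic RNAs that are cut into single messengers, and Mt-nd4l and Mt-nd4 stay together on a shared messenger. Mt-nd6 lies on the opposite strand from the other 6. Neurons draw most of their ATP from this chain.

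Between 16347636 and 27377086 reads per library were assigned to genes. Reads outside annotated genes made up 30.7% to 32.9% of the gene counts and these reads combined. IGF1 replicate 1 stood apart from the rest, where its Spearman correlation with each other library, over IDs, averaged 0.986 and the same average was 0.991 to 0.994 for the other 7. Results are therefore also given without it. The sources used here pair no ID outside the 7 with a gene symbol. Neither the transcript of Igf1, nor hippocampal and other cell type markers, nor the nuclear genes of complex I were therefore analysed. In bulk tissue, a change in the number of cells rich in mitochondria and a change in RNA per cell cannot be told apart. Each of the 7 transcripts was covered by 20404 to 371585 reads per library, which gives a counting error of 0.164% to 0.700%, far below the spread between rats.

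Taken in replicate order, the 7 transcripts together made up 5.13%, 4.91%, 4.00% and 4.38% of the gene counts in the 4 IGF1 libraries. In the 4 DsRed libraries they made up 4.41%, 3.48%, 3.63% and 3.34%. The IGF1 replicates 1 and 2 were the highest of the 8 libraries and DsRed replicates 2, 3 and 4 the lowest. The groups overlapped, because DsRed replicate 1 lay above IGF1 replicates 3 and 4. The IGF1 group averaged 4.60% ± 0.513 and the DsRed group 3.71% ± 0.480 (SD, n = 4 each), which is 0.889 percentage points apart. This difference was 0.713 points without IGF1 replicate 1 and 1.12 points without DsRed replicate 1.

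Gene levels are given in CPM, the standard unit that divides a gene's reads by the size of its library, here with library sizes scaled by the trimmed mean of M values (TMM). The sources used here give no gene lengths, so CPM values are compared between libraries for 1 gene, and not between genes. Mt-nd2, Mt-nd4 and Mt-nd5 encode the antiporter-like subunits of the membrane arm, through which protons are moved. Mt-nd2 was at 13513, 13877, 10026 and 11770 CPM in the IGF1 libraries, and the DsRed libraries were at 12409, 8739, 9388 and 8657 CPM, both in replicate order. IGF1 replicates 1 and 2 were above every DsRed library, and DsRed replicate 1 exceeded IGF1 replicates 3 and 4. The means were 12297 ± 1771 and 9798 ± 1771 CPM (SD, n = 4 each).

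Mt-nd4 was at 13558, 13434, 10807 and 11627 CPM in IGF1 libraries, in the same order, and at 11379, 9515, 9618 and 8582 CPM in DsRed libraries. Here 3 of the 4 IGF1 libraries lay above the highest DsRed library, and IGF1 replicate 3 lay below it. For Mt-nd5, the subunit at the far end of the arm, the values were 7716, 7477, 6157 and 6746 CPM in the IGF1 group. In the DsRed group it was at 6741, 5431, 5552 and 4931 CPM. IGF1 replicate 4 and DsRed replicate 1 had nearly the same level of this transcript, and IGF1 replicate 3 was again the lowest of its group.

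Mt-nd1, Mt-nd3, Mt-nd4l and Mt-nd6 encode the part of the membrane arm next to the peripheral arm. Mt-nd1, which contributes to the ubiquinone site, was at 10263, 10201, 7724 and 9108 CPM in IGF1 rats and at 9098, 6595, 7090 and 6484 CPM in DsRed rats. DsRed replicate 1 was above IGF1 replicate 3 and just below IGF1 replicate 4. Mt-nd4l, encoded on the messenger it shares with Mt-nd4, was at 2350, 2077, 1860 and 1986 CPM in IGF1 rats and at 1956, 1476, 1669 and 1483 CPM in DsRed rats. Again only IGF1 replicate 3 lay below DsRed replicate 1.

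Mt-nd3 encodes a small subunit whose loop moves between the active and deactive states of the enzyme. Its level was 1908, 1630, 1588 and 1539 CPM in IGF1 rats and 1408, 1255, 1295 and 1198 CPM in DsRed rats. It was the only member of the 7 whose groups did not overlap, where 2.74% of all tested IDs had non-overlapping groups with the IGF1 group higher. Since the choice of members already used this contrast, nothing is read from that count. Without DsRed replicate 1, on the same CPM scale, the groups of all 7 were apart, beside 4.64% of all tested IDs in the same direction. Leaving out that library was chosen after its values were seen.

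Mt-nd6, the transcript of the opposite strand, was at 1944, 2175, 1449 and 1760 CPM in IGF1 rats and at 1784, 1320, 1249 and 1101 CPM in DsRed rats. Its spread between rats was the widest of the 7, with a coefficient of variation of 16.7% among IGF1 rats and 21.6% among DsRed rats. Mt-nd3 had the narrowest, at 9.93% and 6.87%. The sources used here do not say whether reads were counted by strand, so Mt-nd6 reads may include reads from RNA antisense to the gene.

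**Figure D1:**
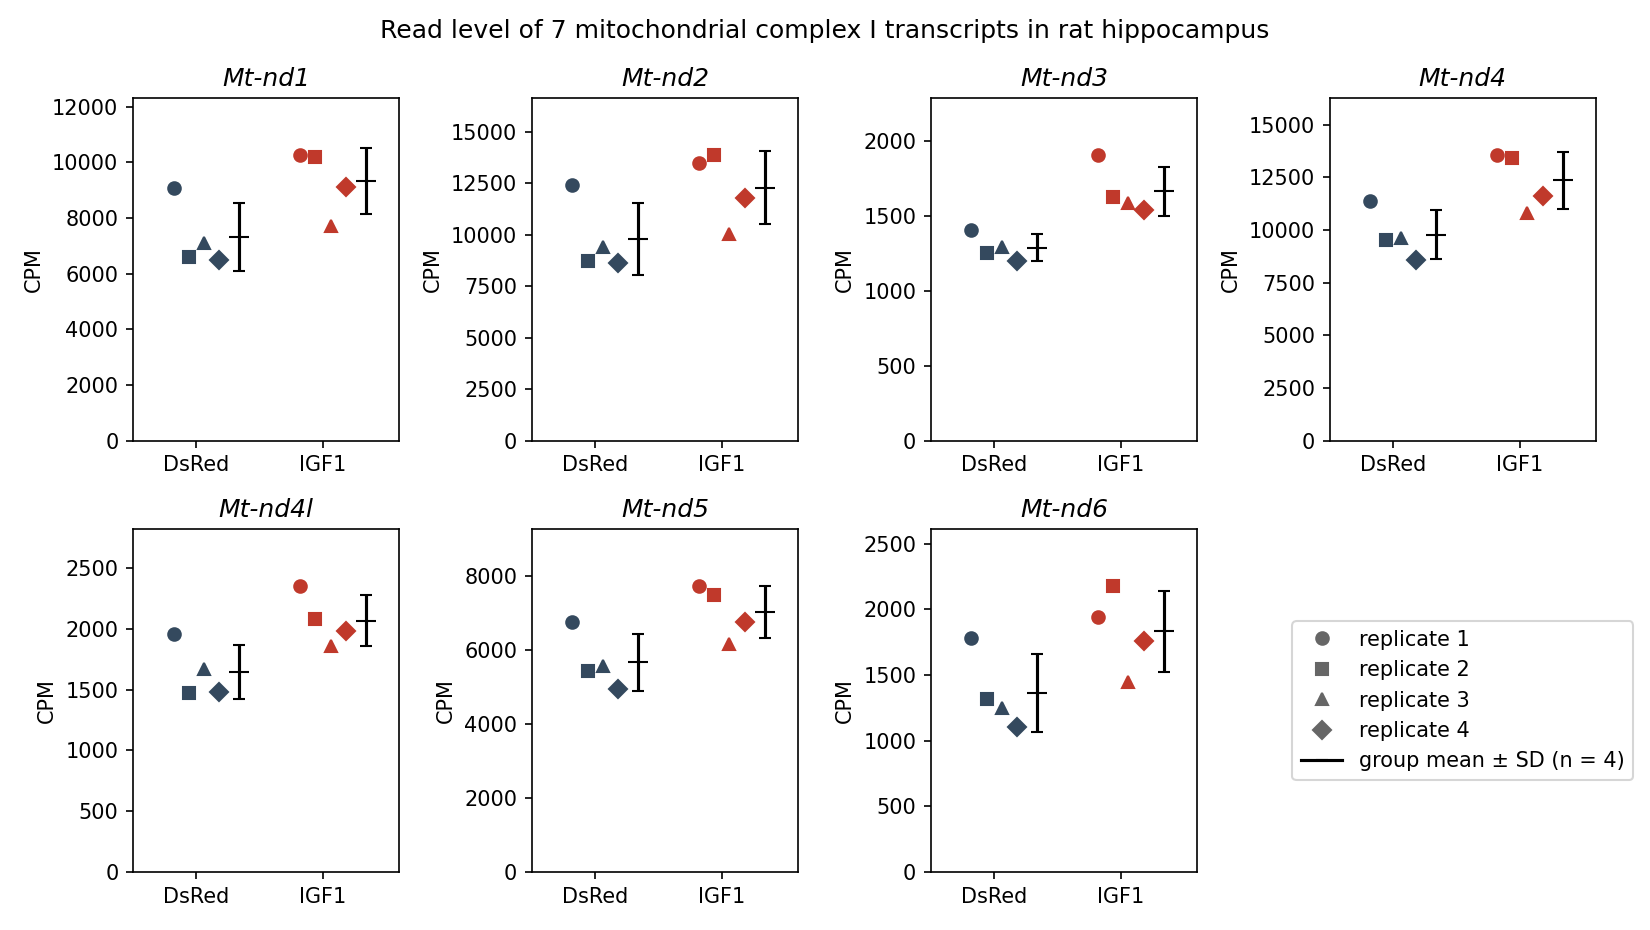
Level of each of the 7 transcripts in CPM (vertical axes, each from 0) in the 4 DsRed and 4 IGF1 libraries; the marker shape gives the replicate number and the black bar the group mean ± SD (n = 4). DsRed replicate 1 is the highest DsRed library in every panel, and only for Mt-nd3 (1408 CPM against a lowest IGF1 value of 1539 CPM) does it lie below all IGF1 libraries.

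The fitted levels of all 7 transcripts were higher in IGF1 rats, by 1.24-fold (Mt-nd5) to 1.34-fold (Mt-nd6), while edgeR called none of them. By its quasi-likelihood test, with p-values adjusted after Benjamini and Hochberg, 0 of the 7 and 0% of the 14522 IDs had an adjusted p under 0.05. At an unadjusted p under 0.05 all 7 were listed, beside 515 IDs higher in the IGF1 group, or 3.55% of those tested, and nothing is read from this count for members chosen on the same contrast. The test listed 958 IDs in both directions at that unadjusted level, 626 without DsRed replicate 2 and 1439 without IGF1 replicate 4. Among the members, 4 of the 7 were listed without IGF1 replicate 2, beside 995 of 14795 IDs in both directions. Likewise 4 were listed without DsRed replicate 2, 3 or 4, beside 626 of 14567, 711 of 14566 and 706 of 14741 IDs. Without IGF1 replicate 1 or 4, 6 were listed, beside 922 of 14530 and 1439 of 14768 IDs. All 7 were listed without IGF1 replicate 3 (1010 of 14548 IDs) or DsRed replicate 1 (800 of 14743 IDs). Nothing is read from these counts either.

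The call for Mt-nd3 depended on the tool. DESeq2 called 13 IDs at an adjusted p under 0.05, or 0.0778% of the 16702 given an adjusted p, and Mt-nd3 was the only member among them (log2 fold change 0.37, SE 0.082, adjusted p = 0.013 by DESeq2). In edgeR's quasi-likelihood test its adjusted p was 0.743, and in its likelihood ratio test 0.060. The likelihood ratio test called 11 IDs (0.0757%) and limma voom 0, with no member in either. As the members were chosen on this contrast, the call is a description.

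The fitted log2 fold changes of the antiporter-like subunits were 0.33 (SE 0.14) for Mt-nd2, 0.34 (SE 0.11) for Mt-nd4 and 0.31 (SE 0.11) for Mt-nd5. For the subunits near the peripheral arm they were 0.35 (SE 0.13) for Mt-nd1, 0.37 (SE 0.081) for Mt-nd3, 0.33 (SE 0.10) for Mt-nd4l and 0.43 (SE 0.16) for Mt-nd6. The members thus ran from 0.31 to 0.43 on the log2 scale, a span smaller than the standard error of Mt-nd6 alone. Their median was 0.34, beside a median of 0.0027 over all tested IDs, and 95.7% of the tested IDs had a lower fitted value than the lowest member. The 20 most abundant IDs outside the members had a median of 0.060, with 15 of them above 0 and a range from -0.23 to 0.35. Their summed share of the gene counts was also higher in the IGF1 group, at 15.4% ± 0.997 against 13.5% ± 0.373 (SD, n = 4 each). For that share the groups did not overlap, with 14.4% to 16.5% in IGF1 libraries and 13.0% to 13.9% in DsRed libraries. Without IGF1 replicate 1 the members' median was 0.29, and without DsRed replicate 1 it was 0.42.

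With libraries scaled by total counts the median of the 7 was 0.31, while that of all IDs moved to -0.026. With library sizes and TMM taken from IDs other than the 7 and the 20 most abundant others, it was 0.34. All 133 values of the 7 members over 19 alternative settings were above 0, between 0.25 and 0.58. As the members were chosen with this direction known, its stability gives no further support.

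**Figure D2:**
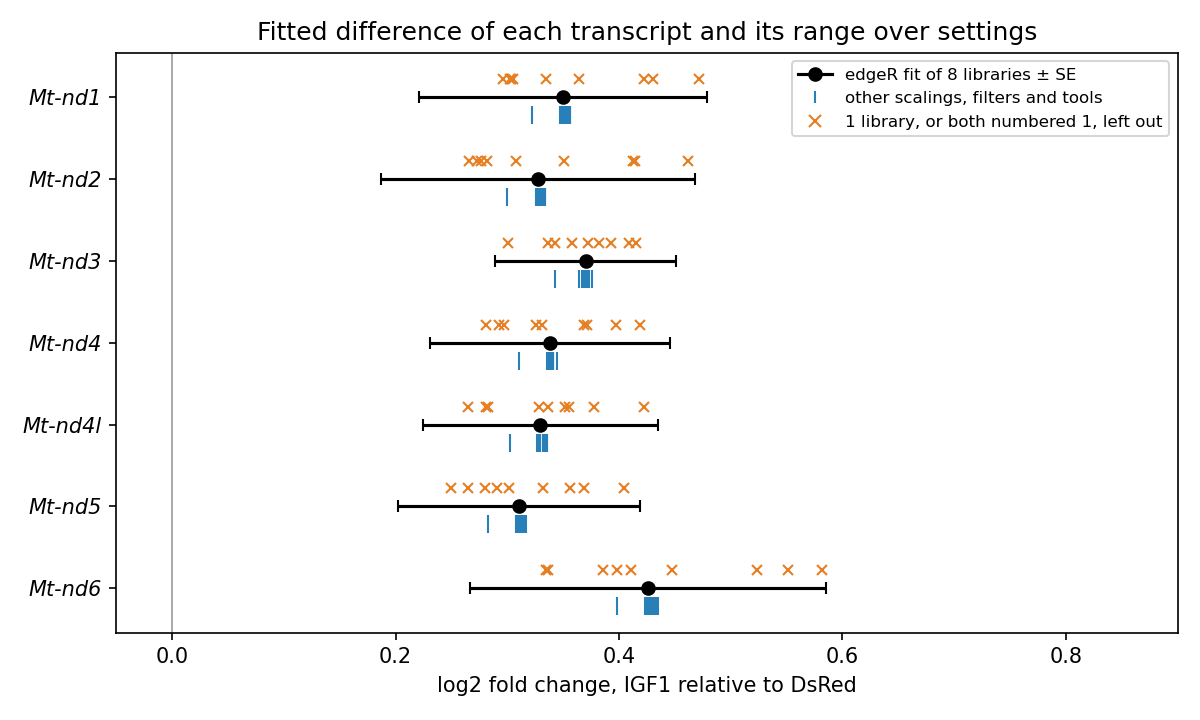
Fitted log2 fold change of each transcript in the IGF1 group relative to the DsRed group (horizontal axis); black points and bars are the edgeR estimate ± SE from 8 libraries, blue ticks other scalings, filters and tools, and orange crosses fits without 1 library or without both libraries numbered 1. All estimates lie between 0.25 and 0.58. The largest shift of each transcript came from leaving out a library, but not every such fit moved it more than scaling by total counts did.

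The 7 transcripts moved up and down together between rats of the same group. Taking each library's log2 CPM as its deviation from the group mean removes the difference between the groups. All 7 were above their group mean in IGF1 replicate 1 (by 0.10 to 0.20) and in DsRed replicate 1 (by 0.13 to 0.41). All 7 were below it in IGF1 replicates 3 and 4 and in DsRed replicates 2 and 4. In IGF1 replicate 2, Mt-nd6 was 0.26 above its group mean and Mt-nd3 0.027 below it, so the members did not move by equal amounts.

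Over the 8 libraries, the 21 pairs of members had Pearson's r of 0.619 to 0.996 and Spearman's rho of 0.619 to 0.976 between these deviations. Exact two-sided permutation tests were run within groups (576 arrangements), with Benjamini-Hochberg adjustment over 21. Of the 21 pairs, 18 had an adjusted p under 0.05 by r and 15 by rho. Pairs of other IDs were not put through this test, so these counts do not set the members apart from other transcripts. The closest pair was Mt-nd1 with Mt-nd2, with r of 0.996 and rho of 0.952. Mt-nd4 with Mt-nd5 followed, with r of 0.990 and rho of 0.976. The adjusted exact permutation p of r was 0.0081 for both pairs, and that of rho was 0.022 and 0.018. Mt-nd4l and Mt-nd4, on their shared messenger, had r of 0.891 and rho of 0.833, with adjusted exact permutation p of 0.0081 and 0.029.

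By r, Mt-nd3 moved least closely with the rest. Its 6 pairs had r between 0.619 and 0.883, against 0.794 to 0.996 for the other 15 pairs, and this difference was not tested. By rho the 2 sets of pairs overlapped more, with 0.619 to 0.881 for Mt-nd3 and 0.619 to 0.976 for the others. The lowest r was that of Mt-nd3 with Mt-nd6, where r and rho were both 0.619 and the adjusted exact permutation p 0.144 and 0.151. Mt-nd4l with Mt-nd6 had the same rho of 0.619 (adjusted exact permutation p = 0.160), with r of 0.794. After dropping the 2 libraries most distant from the median of the member named first in each pair, r was 0.397 to 0.785 in the pairs with Mt-nd3 and 0.633 to 0.990 in the others. The deviations share each library's scaling factor, and the members were chosen with results of these libraries known. With scaling by total counts the lowest r was 0.469, and with TMM computed without the 7 it was 0.640. Leaving out DsRed replicate 1 brought the lowest r to 0.424, and leaving out IGF1 replicate 1 brought it to 0.797.

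**Figure D3:**
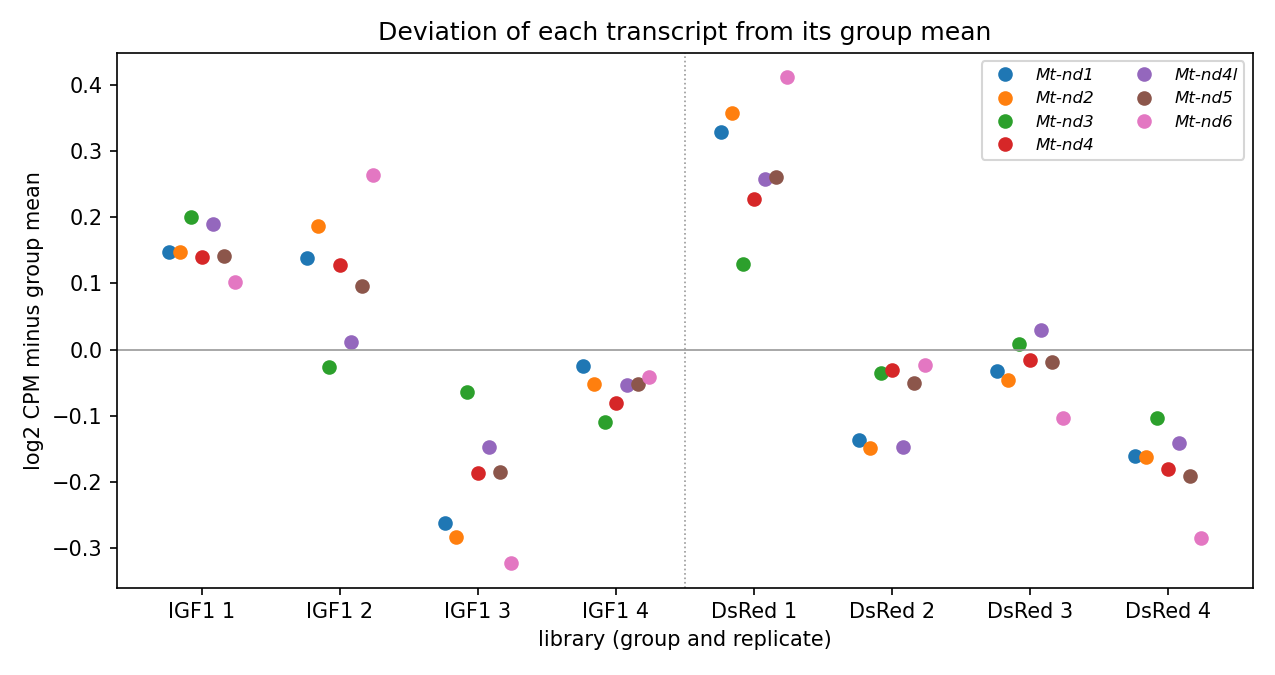
Deviation of each transcript's log2 CPM from its group mean (vertical axis) in the 8 libraries (horizontal axis); colours are genes and the dotted line divides the groups. The 7 points of a library mostly lie on the same side of 0, and they span -0.027 (Mt-nd3) to 0.26 (Mt-nd6) in IGF1 replicate 2 and 0.13 (Mt-nd3) to 0.41 (Mt-nd6) in DsRed replicate 1.

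Outside the members, the 5626 IDs whose mean log2 CPM reached 5 were compared with the members' mean deviation. Pearson's r over the 8 libraries was at least 0.9 for 49 of them and at most -0.9 for 47. The closest were ENSRNOG00000030371 with r of 0.975 and ENSRNOG00000031766 with r of 0.969, the 4th and 5th most abundant IDs of the data. Their fitted log2 fold changes were 0.31 (SE 0.10) and 0.29 (SE 0.10). The next closest ID had r of 0.968, but was 742nd in abundance with a fitted log2 fold change of 0.024 (SE 0.068). The most negative r was -0.988, for an ID with a fitted log2 fold change of -0.36 (SE 0.57). The files do not pair these IDs with symbols.

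The proportions of the 7 among themselves do not depend on library scaling. As a share of the 7-gene read sum, Mt-nd4 held 26.6% ± 0.504 in IGF1 rats and 26.6% ± 0.951 in DsRed rats, and Mt-nd2 26.3% ± 0.806 and 26.5% ± 0.949 (SD, n = 4 each). Mt-nd1 held 20.01% ± 0.390 and 19.8% ± 0.466, and Mt-nd5 15.1% ± 0.347 and 15.4% ± 0.336. These are shares of reads and, without gene lengths, say nothing of the number of molecules. The groups overlapped for all 4 genes, and their means lay less than the SD of either group apart.

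The 3 transcripts with the fewest reads varied most in proportion. Mt-nd6 made up 3.79%, 4.27%, 3.66% and 3.95% of the sum in the IGF1 libraries, by replicate, while the DsRed libraries had 3.99%, 3.85%, 3.48% and 3.40%. Its group means were 3.92% ± 0.265 and 3.68% ± 0.283 (SD, n = 4 each), a difference of 0.242 percentage points, less than either SD. Mt-nd3 ran from 3.20% in IGF1 replicate 2 to 4.01% in IGF1 replicate 3. It was at 3.14% in DsRed replicate 1 and 3.61% to 3.69% in the rest of that group. Its group means of 3.60% ± 0.346 and 3.53% ± 0.257 differed by less than either SD.

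Mt-nd4l made up 4.46% ± 0.267 of the sum in IGF1 rats and 4.47% ± 0.168 in DsRed rats (SD, n = 4 each). The number of Mt-nd4 reads per Mt-nd4l read was 5.77, 6.47, 5.81 and 5.86 in the IGF1 libraries, by replicate, while the DsRed libraries had 5.82, 6.45, 5.76 and 5.79. Both libraries numbered 2 were thus high, and the other 6 lay between 5.76 and 5.86. The group means were alike, at 5.98 ± 0.330 and 5.95 ± 0.330 (SD, n = 4 each). The replicate numbers are those of the sample titles, and the count columns carry other numbers, which the groups do not share. The labels do not say that libraries of the same replicate number were handled together.

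**Figure D4:**
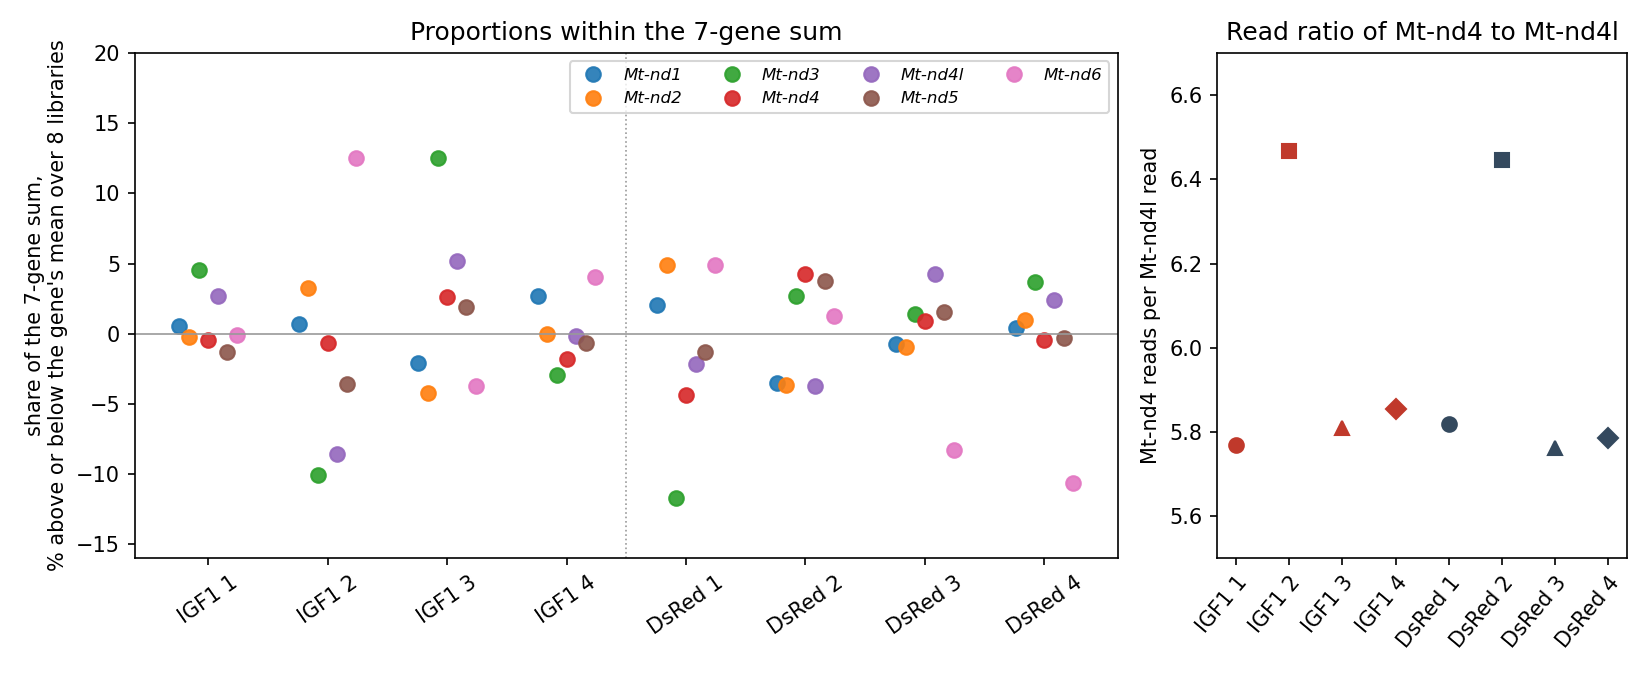
Left, each gene's share of the 7-gene read sum in each library, as percent above or below that gene's mean over the 8 libraries; right, Mt-nd4 reads per Mt-nd4l read in each library (axis not from 0), with marker shape for replicate number. Mt-nd3 and Mt-nd6 spread the most on the left, and on the right both libraries numbered 2, at 6.47 and 6.45, lie above the other 6, at 5.76 to 5.86.

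The summed share of the 7 was set against 3 library measures over the 8 libraries, with exact two-sided permutation tests adjusted over the 3. Tests over the 8 libraries pooled both groups. They therefore include the group difference that the choice of members had used, which only the deviations from group means remove. With the reads assigned to genes, Pearson's r was 0.052 (adjusted exact permutation p = 0.899) and Spearman's rho 0.024 (adjusted p = 0.977), and r was -0.354 without the 2 libraries most distant from the median of the measure. With the share of reads outside genes, r was 0.655 (adjusted exact permutation p = 0.216) and rho 0.714 (adjusted p = 0.173). When the 2 libraries most distant from the median of that share were left out, r was 0.055, but this also narrows the range of the measure. Within the groups (n = 4 each), r was 0.328 among IGF1 and 0.771 among DsRed libraries. As deviations from group means, r and rho were both 0.452, with adjusted exact permutation p of 0.938 for r and 0.842 for rho. With the number of IDs with a read, r was -0.077 and rho -0.024 (adjusted exact permutation p = 0.899 and 0.977). Without the 2 most distant libraries, r was -0.670. For this measure the r within groups was 0.194 among IGF1 and -0.775 among DsRed libraries. For the reads assigned to genes it was 0.469 and -0.545, so for both measures the groups had opposite signs. The share of reads outside genes was 31.9% ± 0.781 among IGF1 rats and 31.2% ± 0.397 among DsRed rats (SD, n = 4 each), and its part in the difference of the 7 transcripts was not tested.

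**Figure D5:**
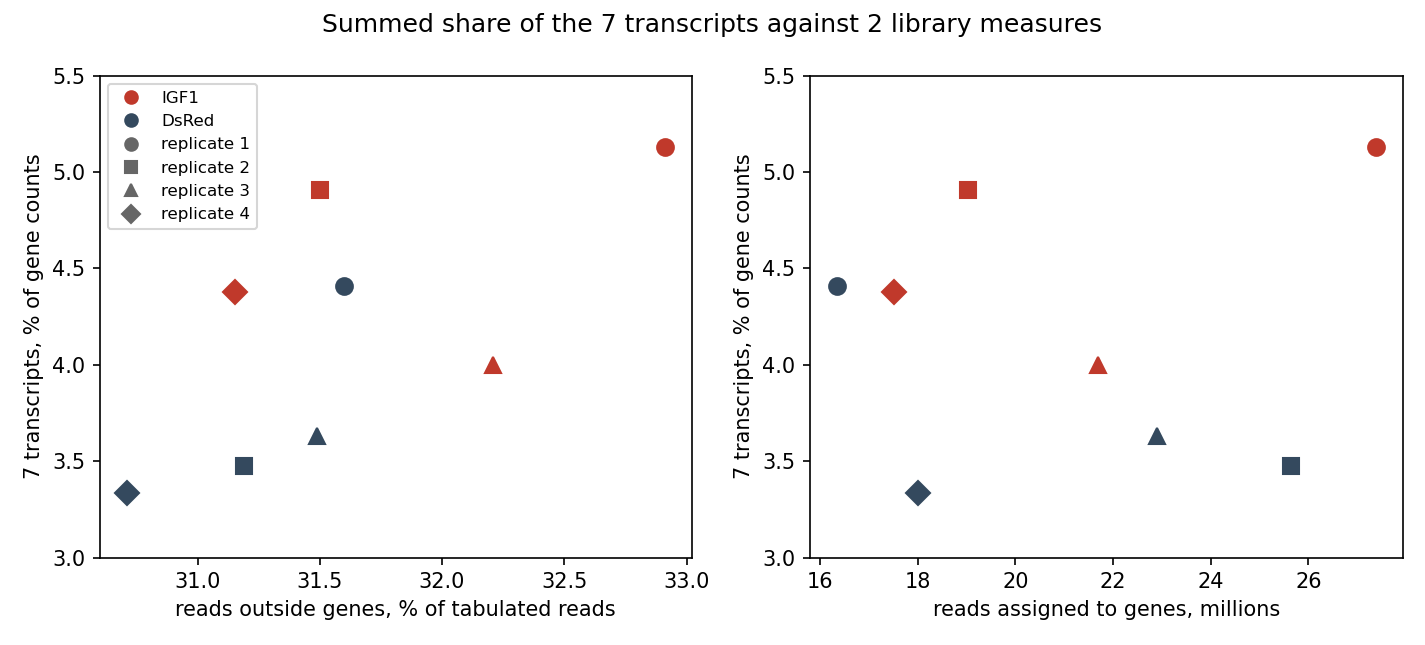
Summed share of the 7 transcripts in the gene counts (vertical axes, from 3%) against the share of reads outside genes (left) and the reads assigned to genes (right), 1 point per library. IGF1 replicate 1 has the highest value on all 3 measures, at 5.13%, 32.9% and 27377086 reads, and over the 8 points of the right panel r was 0.052.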

How the data were processed

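The libraries were made with the Illumina TruSeq RNA kit from total RNA, per the labels' protocols. CASAVA 1.8.2, STAR, HTSeq and edgeR appear in the submitters' processing notes, without their settings. The sources used here do not give the build, the annotation or the strandedness of counting, nor the treatment of reads that also match nuclear copies of mitochondrial DNA. The authors deposited whole-number read counts for 26405 Ensembl IDs with HTSeq summary entries. These entries entered neither library sizes nor tests. Among them, the entry for reads outside genes held 30.7% to 32.9% of the gene counts and that entry combined. They also deposited a normalised signal for 13595 IDs, linear although labelled log2 CPM, per the file headers, used only in an alternative as log2(value + 1), which understates the change of low genes.

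Samples were grouped by title, and columns matched through the sample descriptions. Chi-square per degree of freedom between libraries was 5.74 to 54.1 over 28 pairs, so none was a second deposit of another. IDs were kept by filterByExpr (minimum count 10, minimum total 15) in edgeR 4.0.16 under R 4.3.3, scaled by TMM and fitted with glmQLFit and glmQLFTest on group alone. SE is the log2 fold change over the square root of F. Log2 CPM used a prior count of 2. The procedure was checked on simulated data, where the changed genes had larger fold changes than the members and genes varied independently. That check therefore does not cover changes of the members' size or transcripts that move together. Alternatives were DESeq2 1.42.0, limma 3.58.1, other scalings and filters, a block for replicate number and leaving out libraries.

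The members and lists were chosen with earlier results of these data known. The text names the 7 members and the IDs closest to their mean deviation. Fixed gene lists (other mitochondrial genes, nuclear complex I subunits, assembly factors, mitochondrial gene expression, cell types) were not analysed, since no source used here pairs the other IDs with symbols. The planned ordering of members by level per length was not analysed, for want of gene lengths.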

Additional observations from a re-analysis of the deposited data

Results flagged for a closer look

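In groups of 4 libraries, 38 sets of values were searched for a library whose gap to its nearest neighbour takes up most of the group's range, and 4 were found, where chance gives about 1 in 20. Several sets share the same reads, so they are not independent. DsRed replicate 1 had an Mt-nd3 share of 3.14% of the 7-gene sum, where the other DsRed libraries had 3.61% to 3.69%. IGF1 replicate 2 had 6.47 Mt-nd4 reads per Mt-nd4l read, against 5.77 to 5.86 in its group, and DsRed replicate 2 had 6.45, against 5.76 to 5.82. The Spearman correlation of IGF1 replicate 1 with each other library averaged 0.9857, where the other IGF1 libraries had averages of 0.9927 to 0.9933.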

How the results depend on the processing

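The summed share of the 7 transcripts stayed higher in the IGF1 group in all 13 alternatives (0.579 to 1.15 percentage points), and their median log2 fold change above 0 in all 18 (0.28 to 0.42). IDs at an adjusted p under 0.05 numbered 13 with DESeq2, Mt-nd3 among them, 11 with edgeR's likelihood ratio test (added after the data were seen) and 0 to 1 with 1 library left out, the 1 without DsRed replicate 2, and 0 in the other settings run, and no setting but DESeq2 called a member. At an unadjusted p under 0.05 there were 626 to 1439 IDs with 1 library left out. The lowest r between members was 0.469 with total count scaling and 0.424 to 0.797 with 1 library left out. The causes of these shifts were not tested. Differences in the share of the 7-gene sum changed sign for 5 genes. With 1 library left out they ran from -0.019 to 0.354 points for Mt-nd1, -0.514 to 0.239 for Mt-nd2, -0.066 to 0.203 for Mt-nd3, -0.435 to 0.331 for Mt-nd4 and -0.098 to 0.107 for Mt-nd4l. Without both libraries numbered 1, chosen after the data were seen, Mt-nd2 was at 0.232 and Mt-nd3 at -0.098 points. The signs of Mt-nd5 and Mt-nd6 held in all 9 such settings.

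When replicate number entered the edgeR fit as a replicate block, 0 IDs were called, 878 were listed at an unadjusted p under 0.05, and the median of the 7 was 0.339, so the block changed no call. The SE of all 7 members was smaller with the block, at 0.058 (Mt-nd3) to 0.12 (Mt-nd6) against 0.081 to 0.16 without it. The deviations of same-numbered libraries over all tested IDs correlated at 0.055, 0.126, 0.244 and 0.134, and 6 of the 8 libraries correlated best with their own number. As not every correlation was over 0.1, the numbers were not taken to pair rats. That cut-off does not exclude a link between same-numbered libraries, which was not tested, and the permutation tests treat the libraries as unlinked. Set against its same-numbered DsRed library, the summed share was higher in the IGF1 library in 4 of 4 cases, by 0.367 to 1.43 points.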
